A study of Canis lupus familiaris with 24 samples.

Results

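The comparison described here set untreated MDCK-NBL2 cells against untreated MDCK-II cells after 4 days of culture. It used 6 of the 24 libraries of the series, all those labelled untreated and day 4: 3 of MDCK-NBL2 and 3 of MDCK-II. MDCK (Madin-Darby canine kidney) cells are an established dog kidney line, and MDCK-II and MDCK-NBL2 are sublines of it. The series profiled mRNA in both sublines untreated at day 0 and day 4 and after 4 days of transforming growth factor beta (TGFb), and in TGFb-treated MDCK-NBL2 also with a control siRNA or an siRNA against PRRX1, with 3 replicates in each of 8 groups. By their labels the 6 libraries here received neither TGFb nor siRNA, and the labels describe no transgene or deletion in either subline. The labels do not say that replicates came from separate cultures. Each p-value thus reflects only how libraries vary within groups, which may be technical variation. The main test estimated this spread over all 24 libraries of the 8 groups, not from the 6 libraries alone.

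MDCK cells form polarised sheets joined by tight junctions, adherens junctions and desmosomes, and are a standard model of renal tubule epithelium. Their strains are known to differ in tightness: MDCK-II makes claudin-2, a claudin that forms cation pores, while tight strains lack it. TGFb drives epithelial cells towards an epithelial-to-mesenchymal transition (EMT), in which cell junctions are lost and matrix and contractile genes are switched on, under transcription factors such as SNAI1, ZEB1, ZEB2 and PRRX1.

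The 6 libraries held between 8019070 and 27567300 counts. Libraries were compared in CPM, counts scaled to a total of 1000000 after trimmed-mean (TMM) scaling. In a principal component analysis of the 6 libraries the first component, with 61.3% of the variance, separated the sublines. The second, with 20.3%, spread the MDCK-NBL2 libraries, with replicate 2 at -45.9, replicate 1 at 16.5 and replicate 3 at 50.7. The third, with 11.8%, set replicate 1 of both sublines (36.9 and 28.5) apart from the other 4 libraries.

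MDCK-NBL2 replicate 2 at day 4 stood apart in the direction of TGFb treatment. Over 711 genes that TGFb raised at least 4-fold in MDCK-NBL2, chosen without this library, each library was placed on a scale from the MDCK-NBL2 day 0 mean (0%) to the TGFb-treated mean (100%). Replicate 2 had a median position of 66.4%, against 9.64% in replicate 1, -3.84% in replicate 3 and -1.18% to 7.41% in the 3 MDCK-II libraries. The genes were widely spread: the upper quartile was 45.7% in replicate 1, 7.60% in replicate 3 and 27.2% to 54.8% in MDCK-II. The quartiles of replicate 2 were 40.4% and 86.7%. In replicate 2 BAMBI, a TGFb pseudoreceptor induced as feedback, was at 137 CPM against 1.87 and 1.95 CPM in the other MDCK-NBL2 libraries and 1.08 to 2.19 CPM in MDCK-II (4.76 ± 1.09 with replicate 2, 0.11 ± 0.39 without it). Counts of genes called at day 4 are therefore given below with all libraries and without MDCK-NBL2 replicate 2. Single genes are given with all libraries, and also without it where their call changed or their fold moved by over 1.5 times. Lower bounds of genes without a count in any MDCK-NBL2 library are given with all libraries only. They are smaller without the depth of replicate 2. Of 233 genes named, 209 kept their direction and their side of the threshold. The cause of the position of this library was not tested.

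**Figure D1:**
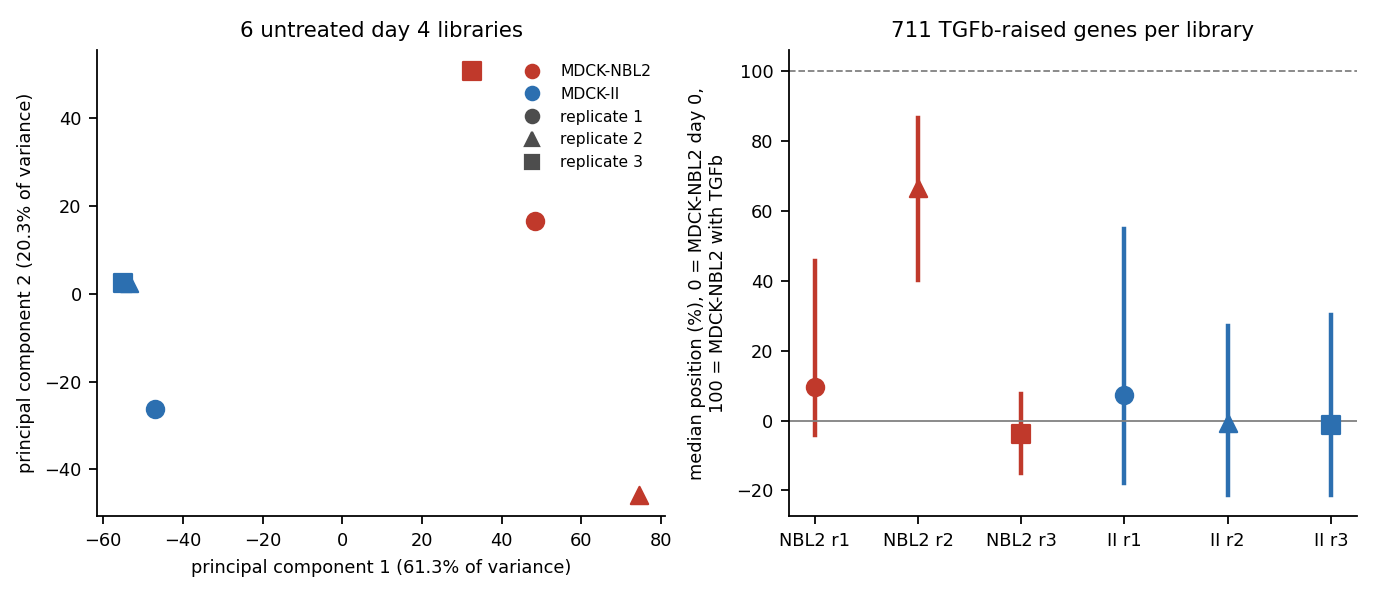
Left, the 6 libraries on the first 2 principal components of log2(CPM + 1), with colour for the subline and shape for the replicate. Right, the median position (point) and the quartiles (bar) of 711 TGFb-raised genes in each library, in percent of the distance from MDCK-NBL2 day 0 to TGFb-treated MDCK-NBL2; MDCK-NBL2 replicate 2 sits at 66.4% and the other 5 libraries between -3.84% and 9.64%.

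The subline labels were checked with genes chosen on the day 0 libraries alone, at 5 CPM or more in every library of one subline and under 0.5 CPM in every library of the other. The 46 MDCK-NBL2 genes so found had median levels of 18.8, 36.5 and 17.6 CPM in the day 4 MDCK-NBL2 libraries and 0 to 0.115 CPM in the MDCK-II libraries, and 45, 46 and 46 of them reached 1 CPM in MDCK-NBL2. They include PDPN, NID2, ALCAM, SCN9A, FADS1 and GJA1. Only 3 MDCK-II genes (APOBEC1, UBE2QL1 and NR5A2) met the rule, and MDCK-NBL2 day 0 replicate 1 held many other MDCK-II genes at a low level. Without that library 75 MDCK-II genes were found, and their median level in it was 10.05% of that in MDCK-II at day 0. At day 4, 75, 74 and 75 of these genes reached 1 CPM in MDCK-II, against 11, 9 and 1 in MDCK-NBL2. The day 4 libraries thus carried the genes of their labelled subline.

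Epithelial markers and the tubule regulator PAX8 were present in both sublines, while the kidney marker CDH16 was low. CDH1, which encodes E-cadherin, was at 1776, 1158 and 1096 CPM in MDCK-NBL2 replicates 1, 2 and 3, and at 1206, 1032 and 1047 CPM in MDCK-II. EPCAM, an epithelial adhesion molecule, was at 664, 552 and 535 CPM against 493, 371 and 391 CPM. The CDH1 groups overlapped and the EPCAM groups did not, but neither gene passed the test (log2 difference 0.29 ± 0.16 SE with adjusted p = 0.165, and 0.48 ± 0.20 with adjusted p = 0.0684). The splicing factor ESRP1 was modestly higher in MDCK-NBL2 (0.42 ± 0.14, adjusted p = 0.0233; 0.168 without MDCK-NBL2 replicate 1, 0.0612 without MDCK-II replicate 1 and 0.0669 without MDCK-II replicate 2), whereas GRHL2 (0.71 ± 0.29, adjusted p = 0.0611; 0.97 and 0.00966 without replicate 2) and TJP3 (0.82 ± 0.33, adjusted p = 0.0597) did not pass with all libraries. Among tubule regulators PAX8 did not pass (208 ± 122 CPM, SD, against 217 ± 87.2 CPM, n = 3 each, adjusted p = 0.889), while PAX2 (-2.30 ± 0.21, adjusted p = 9.25e-08) was lower in MDCK-NBL2. CDH16, the kidney cadherin, was at 3.09, 0.037 and 0.23 CPM in MDCK-NBL2 and 20.2, 1.32 and 1.96 CPM in MDCK-II. It did not pass (adjusted p = 0.0746).

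Many markers of cells foreign to an epithelial culture had no count. Of 12 fibroblast markers, 5 (PDGFRB, DPT, LUM, DCN and FAP) had no count in any of the 6 libraries, and the summed level ran from 58.1 to 858 CPM in MDCK-NBL2 and from 37.2 to 56.5 CPM in MDCK-II. The top of that range was replicate 2, where COL1A1 and COL1A2 made up most of the sum. Of the 6 fibroblast markers tested, COL1A1, COL1A2 and PDGFRA were called higher in MDCK-NBL2 and none lower (median 2.51), and without replicate 2 COL1A2 and PDGFRA (median 1.24). Of the 10 endothelial markers in the table, ERG and EMCN had no count, CDH5 and PECAM1 were under 0.3 CPM in every library, and the sum of 106 to 208 CPM in MDCK-NBL2 and 91.9 to 153 CPM in MDCK-II came mostly from FLT1. Of the 4 tested, VWF (2.82 ± 0.63) and TIE1 (4.01 ± 0.88) were called higher and KDR (-2.95 ± 0.53) lower in both fits, each at or under 6.46 CPM in every library (medians 1.56 and 1.53). Of 11 leukocyte markers, CD3D, CD3E, SPI1 and MS4A1 had no count and the sums were 1.49 to 4.66 CPM and 3.81 to 5.62 CPM. In such bulk libraries fewer cells of a type and less RNA per cell cannot be told apart, and the part of these cells in the results was not tested.

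Of 12466 genes tested with edgeR, 4527 differed between the sublines at an adjusted p under 0.05, which is 36.3% of them. In MDCK-NBL2, 2615 genes (21%) were higher and 1912 (15.3%) lower, and 2232 (17.9%) differed at least 2-fold. The median log2 difference over all genes tested was 0.02. Without MDCK-NBL2 replicate 2, 4294 of 12574 genes were called (34.1%), 2321 higher (18.5%) and 1973 lower (15.7%). The calls shared by both fits in the same direction numbered 3552, of which 2025 were higher and 1527 lower. A fit of the 6 libraries alone, which estimates the spread from them only, called 1267 genes, 734 higher and 533 lower. Of 228 named genes tested in that fit 53 lost their call. Among those described below these were CALD1, HHIPL1, CLDN2, CXADR, LSR, DSG3, DSP, DST, KRT19, PRRX2, SOX9, SGK1, GATA3, NOTCH3, SMAD7, FN1, TGFBI, SCGB1A1, TMPRSS2, MVD, ATF5, PSAT1, SLC2A3, HK2, CA9, KIF2C, POLA1, CDC6, PCNA, CDKN1A, CDKN1B and PKHD1, and of those above BAMBI and ESRP1. The levels of 2126 genes (17.1%) lay above every MDCK-II library in all 3 MDCK-NBL2 libraries, and those of 1798 genes (14.4%) lay below.

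Several genes were present in one subline and at or near 0 in the other. ALCAM, an immunoglobulin-family adhesion molecule, was at 328, 105 and 219 CPM in MDCK-NBL2 and had no count in MDCK-II, at least 3740-fold higher when 3 counts are taken as the limit for the whole group (adjusted p = 2.63e-09). IQGAP2, a scaffold of the actin cytoskeleton, was at 64.2, 73.1 and 74.9 CPM against no count, at least 1226-fold higher (adjusted p = 4.22e-13). GJA1, the gap junction protein connexin 43, was at 18, 89.9 and 25.8 CPM against no count, at least 903-fold higher (adjusted p = 2.31e-06), or at least 353-fold without replicate 2. For these genes the 3 MDCK-NBL2 libraries lay far above all MDCK-II libraries, with replicate 2 the lowest for ALCAM and the highest for GJA1. UPK3A, a uroplakin of urothelial plaques, was at 60.3, 60.9 and 18.5 CPM, and PLBD1, a phospholipase B-like protein, at 50.1, 27.2 and 20.1 CPM, both with no count in MDCK-II. TFF1, a secreted trefoil peptide of mucosal surfaces, was at 530, 82 and 242 CPM against 0, 0.166 and 0 CPM (log2 difference 11.46 ± 0.76, adjusted p = 1.01e-09). PDPN, the mucin-type glycoprotein podoplanin, was at 28.3, 146 and 51.4 CPM and had 1 count in MDCK-II, a ratio of 4454 with an exact 95% counting interval of 799 to 176000, or 1811 without replicate 2. TGFB1I1, a focal adhesion adaptor, and ARMCX3 were also without a count in MDCK-II, with lower bounds of 598-fold (247-fold without replicate 2) and 460-fold.

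For 3 of the 12 largest rises the size rested mostly on replicate 2. COL1A2, the alpha 2 chain of type I collagen, was at 15, 232 and 32.4 CPM against no count, at least 2019-fold higher with all libraries and at least 344-fold without replicate 2. CALD1, the actin-binding caldesmon, was at 0.772, 126 and 1.61 CPM, and its bound dropped from at least 1002-fold to at least 17.4-fold without replicate 2. HHIPL1 was at 1.99, 125 and 0.803 CPM, with bounds of 1003-fold and 29.5-fold. Their adjusted p without replicate 2 was 8.82e-05, 0.0126 and 0.00838. The rule for the largest rises required them to pass without it and to lie above MDCK-II in every library.

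The largest falls were genes nearly silent in MDCK-NBL2. ERBB4, a receptor for neuregulins and other ligands of the epidermal growth factor (EGF) family, had no count in MDCK-NBL2 and was at 15.5, 7.61 and 10 CPM in MDCK-II, at least 203-fold lower (adjusted p = 1.47e-06). EGF itself had 2 counts in MDCK-NBL2 against 83.2, 18.3 and 16.9 CPM in MDCK-II, a ratio of 1061 (exact 95% counting interval 293 to 8767). The transcription factor GATA4 (at least 245-fold lower) and APOBEC1, the apolipoprotein B mRNA-editing enzyme (at least 314-fold lower), also had no count in MDCK-NBL2. BCHE, butyrylcholinesterase, had 1 count, in replicate 2, against 222, 80.8 and 88.2 CPM, a ratio of 7196, or at least 1324-fold lower without replicate 2. Replicate 1 of MDCK-II was the highest of its group for each of these 5 genes. The rule that chose them required no overlap between the sublines.

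Other falls left a low but countable level. PTPRD, a receptor tyrosine phosphatase, was at 0.365, 0.148 and 0 CPM against 185, 214 and 220 CPM (-9.87 ± 1.36, adjusted p = 1.28e-05). TRPA1, an irritant-sensing cation channel, was at 0.812, 0.185 and 0.23 CPM against 489, 170 and 179 CPM (-9.27 ± 1.39, adjusted p = 2.95e-05). ENPEP, the angiotensin-cleaving aminopeptidase A, and ALOX15B, a lipoxygenase, were lower (-8.65 and -8.58 on the log2 scale, and -7.86 and -7.99 without replicate 2). PDE1A, a cyclic nucleotide phosphodiesterase, and CLIC2, an intracellular chloride channel protein, were at or under 0.0812 CPM in MDCK-NBL2 and above 15 CPM in MDCK-II, with ratios of 968 and 724 (at least 178-fold, and 400, without replicate 2). The rule that chose the 12 falls required each to pass the test with and without MDCK-NBL2 replicate 2.

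**Figure D2:**
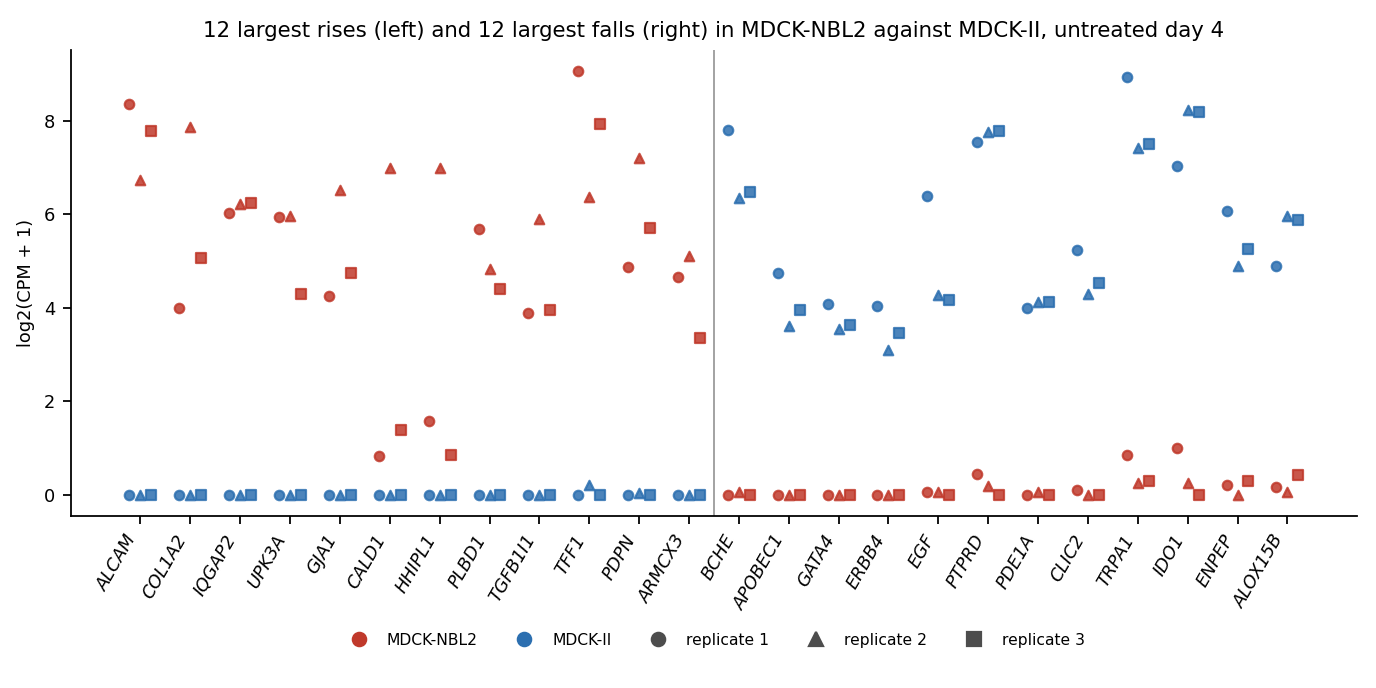
Level, as log2(CPM + 1), of the 12 largest rises and 12 largest falls in each of the 6 libraries, with colour for the subline and shape for the replicate. The 24 genes were chosen to have no overlap between the 2 groups and to pass the test with and without MDCK-NBL2 replicate 2. For CALD1 and HHIPL1 that replicate sits far above the other libraries of its group.

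The genes were then read by lists of function. Apart from a fixed set of EMT and junction genes, the members named were chosen by adjusted p or after their values were seen. A lack of overlap between the groups in these members is thus no further evidence. Each list is given with the number of tested members called in each direction and its median log2 difference, to be read against 21% called higher, 15.3% called lower and a median of 0.02 over all genes, or 18.5%, 15.7% and 0.0018 without replicate 2.

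**Figure D3:**
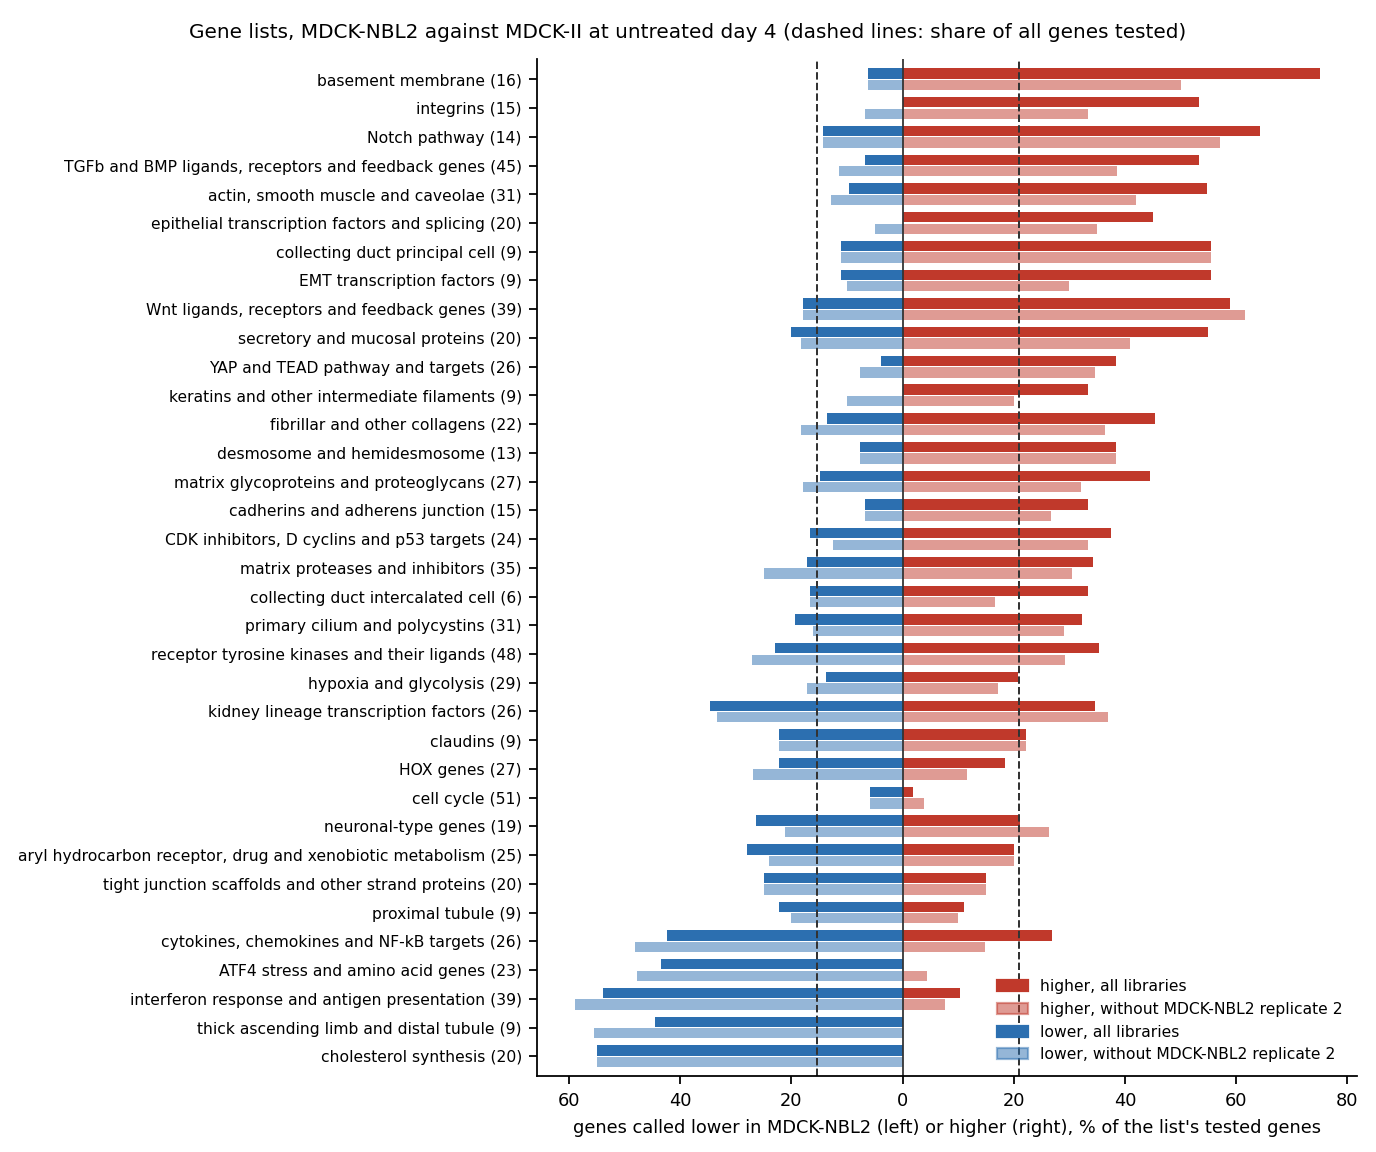
Share of each list's tested genes called lower (left, blue) or higher (right, red) in MDCK-NBL2, with all libraries (dark) and without MDCK-NBL2 replicate 2 (light), and the number tested with all libraries in brackets. Dashed lines mark the shares over all genes tested, 15.3% and 21%; basement membrane genes (12 of 16 higher) and cholesterol synthesis genes (11 of 20 lower) lie at the ends.

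Tight junction genes differed in a few members. Of 9 claudins tested 2 were higher and 2 lower, and of 20 other tight junction genes 3 were higher and 5 lower, with the same counts without replicate 2. The medians were -0.09 and 0.06, and -0.16 and 0.06 without it. CLDN2, the pore-forming claudin-2, was at 0.122, 0 and 0 CPM in MDCK-NBL2 and 33, 0.993 and 1.73 CPM in MDCK-II, a ratio of 192 (exact 95% counting interval 65.3 to 934, adjusted p = 0.00456), or 106 without replicate 2. MDCK-II replicate 1 was far above the other 2 libraries of its group, and the groups did not overlap (adjusted p = 0.0537 without replicate 1 of both sublines). CLDN16, a claudin of divalent cation transport, fell (-3.60 ± 0.49, adjusted p = 1.03e-05), and CLDN6, an embryonic claudin, rose (14.1, 21.2 and 12.4 CPM against 0.792, 1.12 and 1.27 CPM, 3.91 ± 0.30, adjusted p = 7.69e-09). CLDN8 was at 1.7 to 5.85 CPM in MDCK-NBL2 with no count in MDCK-II, at least 59.7-fold higher. The other claudins CLDN1 (0.20 ± 0.34), CLDN3 (-0.51 ± 0.31), CLDN4 (0.55 ± 0.28) and CLDN7 (-0.31 ± 0.17) did not pass. Among scaffold and strand genes MAGI1 rose (2.31 ± 0.25) and the adhesion receptors CXADR (-0.72 ± 0.11) and LSR (-0.61 ± 0.11), a tricellular junction protein, fell.

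Adherens junction, desmosome and epithelial regulator genes were more often higher. Of 15 adherens junction genes 5 were higher and 1 lower, of 13 desmosome and hemidesmosome genes 5 were higher and 1 lower, and of 20 epithelial transcription and splicing factors 9 were higher and none lower; without replicate 2 these were 4 and 1, 5 and 1, and 7 and 1. The medians were 0.41, 0.48 and 0.44, and 0.38, 0.59 and 0.52 without it. NECTIN4, a nectin adhesion receptor, was at 44.1, 149 and 17.7 CPM against 0.072, 0.0331 and 0.231 CPM (9.69 ± 0.88, adjusted p = 8e-08; 8.52 without replicate 2). CTNNB1, which encodes the junction and Wnt protein beta-catenin, was at 1976, 2284 and 1016 CPM against 685, 604 and 590 CPM (1.49 ± 0.20, adjusted p = 6.85e-06). NECTIN3 fell (-1.51 ± 0.29). The desmosomal cadherins DSC3 (146, 201 and 137 CPM against 25, 33.7 and 28.9 CPM) and DSG3 and the plaque protein DSP rose by 2.46, 1.43 and 1.03, while DST fell by 0.74. In none of these genes did the groups overlap. GRHL3 (3.52 ± 0.53) and OVOL2 (1.68 ± 0.15), both epithelial transcription factors, and ST14 (1.00 ± 0.13), the membrane protease matriptase, were higher.

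Of 9 keratins and other intermediate filament genes 3 were higher and none lower, with a median of 0.84; without replicate 2, 2 of 10 were higher and 1 lower, with a median of 0.32. Of 9 EMT transcription factors 5 were higher and 1 lower, with a median of 0.74; without replicate 2, 3 of 10 were higher and 1 lower, with a median of 0.40. KRT5 (2.29 ± 0.42) and KRT19 (1.06 ± 0.30), keratins of basal and simple epithelium, were higher, with overlapping groups for KRT19 (adjusted p = 0.0532 without MDCK-NBL2 replicate 1). KRT14, the partner of KRT5, was at 17.3, 1227 and 14 CPM against 8.35, 85.8 and 93.2 CPM. Its log2 difference of 2.75 ± 1.11 did not pass with all libraries (adjusted p = 0.0596) and was -1.98 ± 0.69 without replicate 2 (adjusted p = 0.0315). VIM, vimentin, was at 2833, 1913 and 4586 CPM against 3110, 5730 and 5402 CPM and did not pass (-0.61 ± 0.27, adjusted p = 0.0848). SNAI1, a repressor of CDH1, rose from 2.16, 7.65 and 5.08 CPM in MDCK-II to 38.3, 18.5 and 19.6 CPM in MDCK-NBL2 (2.33 ± 0.34, adjusted p = 2.44e-05), with no overlap. FOXC2 (1.58 ± 0.22) and PRRX2 (2.80 ± 0.46, and 1.89 without replicate 2) were also higher, and SOX9 was lower (-1.005 ± 0.32, adjusted p = 0.0174; -0.85 and 0.0661 without replicate 2, and adjusted p = 0.0626 without MDCK-NBL2 replicate 3 and 0.0505 without MDCK-II replicate 2).

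The other EMT factors were low or rested on replicate 2. SNAI2 was at 5.52, 53.8 and 9.52 CPM against 7.99, 48.5 and 44.7 CPM (-0.53 ± 0.65, adjusted p = 0.553), and without replicate 2 its difference of -2.23 ± 0.61 passed (adjusted p = 0.00789). ZEB1 was under 1.5 CPM in every library and PRRX1 at or under 3.25 CPM, and neither passed in either fit. ZEB2 had 1 count in MDCK-II and was at 0.0406, 1.66 and 0 CPM in MDCK-NBL2. Its call (adjusted p = 0.0383) was lost without replicate 2 (adjusted p = 0.911), and also without MDCK-II replicate 2 (0.176) or replicate 3 (0.083).

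Nephron segment genes moved in both directions. Of 9 collecting duct principal cell genes 5 were higher and 1 lower, of 9 thick ascending limb and distal tubule genes none was higher and 4 were lower, and of 9 proximal tubule genes 1 was higher and 2 lower, with medians of 1.11, -0.995 and -0.81. Without replicate 2 the counts were 5 and 1 of 9, 0 and 5 of 9 and 1 and 2 of 10, with medians of 0.87, -0.89 and -1.37. The differences between the segments were not tested. TFCP2L1, a transcription factor of the collecting duct, was at 43, 87.2 and 45.4 CPM against 16.9, 10.2 and 12.6 CPM (2.16 ± 0.26, adjusted p = 2.03e-06). SGK1, an aldosterone-induced kinase, and GATA3, a transcription factor, rose by 2.12 and 1.11, the latter with overlapping groups, while SCNN1B, a subunit of the epithelial sodium channel, fell by 4.24. TRPM6, the magnesium channel of the distal tubule, was at 0.569, 0.185 and 0.344 CPM against 11.2, 5.86 and 7.73 CPM (-4.46 ± 0.57, adjusted p = 4.95e-06). FXYD2, a regulator of the sodium pump, had no count in MDCK-NBL2 and was at least 41.2-fold lower. Of 6 intercalated cell genes 2 were higher and 1 lower, with a median of 0.18, and without replicate 2 1 and 1, with a median of 0.48. The carbonic anhydrases moved apart: CA12 was higher (110, 292 and 49.3 CPM against 25.1, 22.3 and 21.1 CPM, 2.72 ± 0.39, or 1.82 without replicate 2) and CA2 was lower (7.84, 92.2 and 18.4 CPM against 924, 509 and 485 CPM, -4.01 ± 0.81, or -5.66 without it). DPP4, a brush border peptidase, rose (189, 148 and 133 CPM against 14.2, 14.5 and 13.7 CPM). CUBN, the receptor cubilin, fell (-1.67 ± 0.21), as did the regulator HNF4A (-4.73 ± 0.70, or -5.35 without replicate 2).

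Lineage transcription factors split evenly in number but by large amounts. Of 26 tested 9 were higher and 9 lower, with a median of -0.19. Without replicate 2, 10 of 27 were higher and 9 lower, with a median of -0.10. IRX2 was at 27.5, 15.3 and 37.1 CPM against 0.216, 0.0331 and 0.231 CPM (7.70 ± 0.49, adjusted p = 6.35e-10), and TBX2 and SIX4 were also higher. OSR1, an early marker of kidney progenitors, was at 0.65, 0.111 and 0.115 CPM against 131, 59.9 and 66.1 CPM (-7.99 ± 1.01, adjusted p = 4.57e-06). POU3F2 had no count in MDCK-NBL2 and was at least 122-fold lower, and SIM1 (-6.56 ± 0.86) and HNF4G (-3.24 ± 0.23) also fell. Of 27 HOX genes 5 were higher and 6 lower, with a median of 0.07, and without replicate 2 3 of 26 were higher and 7 lower, with a median of 0.03. The trunk-level HOXB6 and HOXB8 fell by 1.73 and 2.71, and the more posterior HOXA11 and HOXB13 rose by 2.06 and 1.81, each without overlap.

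Wnt pathway genes were more often higher than lower, and their counts barely moved without replicate 2. Of 39 tested 23 were higher and 7 lower, with a median of 0.84; without replicate 2, 24 were higher and 7 lower, with a median of 0.89. AXIN2, a feedback target of beta-catenin signalling, was at 48.8, 25.4 and 24 CPM against 4.61, 3.11 and 3.35 CPM (3.16 ± 0.36, adjusted p = 1.16e-06). Among receptors LGR6, an R-spondin receptor, was at 14.7, 37.1 and 6.31 CPM against 0, 0.0662 and 0.231 CPM (7.86 ± 0.80, or 6.99 without replicate 2), and FZD6 rose by 0.84. ROR2, a receptor for non-canonical Wnt ligands, was at 4.43, 3.73 and 3.33 CPM with no count in MDCK-II, at least 69.6-fold higher. DKK1, a secreted Wnt inhibitor, was at 2.96, 6.21 and 2.18 CPM with no count, at least 75.7-fold higher, or at least 48.5-fold without replicate 2. The ligand WNT5B (5.97, 115 and 6.88 CPM against 0.0993 to 0.346 CPM) and the receptor FZD2 (70, 376 and 81.6 CPM against 11.7 to 25.7 CPM) were highest in replicate 2 but lay above MDCK-II in all 3 libraries, with differences of 7.72 and 3.40, or 4.97 and 2.18 without it.

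Notch pathway genes were likewise more often higher. Of 14 tested 9 were higher and 2 lower, with a median of 2.58; without replicate 2, 8 were higher and 2 lower, with a median of 1.26. The receptor NOTCH1 was at 450, 454 and 208 CPM against 19.1, 22.8 and 18.2 CPM (4.20 ± 0.25, adjusted p = 2.57e-10), and NOTCH3 was higher by 4.09 ± 0.83. The ligand JAG2 was at 130, 59.9 and 81.6 CPM against 12.2, 21.4 and 14.1 CPM (2.495 ± 0.27, adjusted p = 6.27e-07). LFNG, a fringe glycosyltransferase that modifies Notch, rose by 6.58, or 5.14 without replicate 2. Of the targets, HES4 rose (3.64 ± 0.42) and NRARP had 1 count in MDCK-II and 2.06 to 4.36 CPM in MDCK-NBL2, a ratio of 208 (exact 95% counting interval 37.0 to 8248). None of these genes overlapped between the sublines.

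TGFb and BMP genes were more often higher than lower. Of 45 tested 24 were higher and 3 lower, with a median of 0.83; without replicate 2, 17 of 44 were higher and 5 lower, with a median of 0.54. The ligands BMP4 (116, 162 and 136 CPM against 32, 36.4 and 31.9 CPM) and BMP7 (143, 303 and 155 CPM against 38.9, 42.1 and 46 CPM) rose by 2.04 ± 0.21 and 2.24 ± 0.20. The signalling receptors TGFBR1 (214, 404 and 222 CPM against 71.7, 80.3 and 81.7 CPM) and TGFBR2 (567, 214 and 344 CPM against 103, 116 and 124 CPM) rose by 1.85 ± 0.20 and 1.72 ± 0.25, and by 1.49 and 2.00 without replicate 2. For these 4 genes every MDCK-NBL2 library exceeded every MDCK-II library. The coreceptor TGFBR3, betaglycan, fell to 0.244, 0.0739 and 0.115 CPM from 33.3, 14 and 15.2 CPM (-7.05 ± 0.78, adjusted p = 8.49e-07). FST, the activin antagonist follistatin, fell to 18.5, 5.17 and 23.3 CPM from 71.6, 704 and 598 CPM (-4.90 ± 0.74). SMAD7, a feedback inhibitor, was at 9.38, 45.6 and 5.39 CPM against 2.95, 1.82 and 2.42 CPM, higher by 3.13 ± 0.51 and, without replicate 2, by 1.71 ± 0.22.

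Growth factor genes moved both ways: of 48 receptor tyrosine kinases and ligands 17 were higher and 11 lower, with a median of 0.31, and without replicate 2 14 and 13, with a median of 0.15. Beside the loss of ERBB4 and EGF, the receptor EGFR rose (96.7, 114 and 52.2 CPM against 34.1, 36.5 and 30.1 CPM, 1.39 ± 0.21). Its ligand EREG was at 281, 485 and 252 CPM against 8.57, 41.6 and 51.1 CPM (3.33 ± 0.48), and AREG was at 56.7, 23.2 and 10.2 CPM with 2 counts in MDCK-II, a ratio of 924 (exact 95% counting interval 255 to 7631). Thus the EGF-family ligand transcripts differed in opposite directions, without overlap for any of the 3. FGF2 had 2 counts in MDCK-II and 2.75 to 5.77 CPM in MDCK-NBL2. The lymphangiogenic factor VEGFC fell (-1.76 ± 0.21) and IGFBP6 rose (2.25 ± 0.26). The coreceptors NRP1 (3.06 ± 0.44) and NRP2 (2.70 ± 0.31), which bind semaphorins and VEGF, were also higher; they belong to a list of 19 neuronal-type genes, of which 4 were higher and 5 lower (median 0.09), and without replicate 2 5 and 4 (median 0.07).

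Extracellular matrix genes were more often higher than lower in MDCK-NBL2, but here replicate 2 decided much of the size. Of 22 collagens 10 were higher and 3 lower, with a median of 2.78, or 2.27 with genes absent from one group set at their bound; without replicate 2, 8 were higher and 4 lower, with a median of 1.07. COL12A1, a fibril-associated collagen, was at 162, 3356 and 232 CPM against 4.82, 3.48 and 2.89 CPM (8.38 ± 1.01, and 5.71 ± 0.48 without replicate 2). COL5A1 (255, 621 and 148 CPM against 78.2, 35 and 35.1 CPM) and COL6A1 rose by 2.79 and 6.67, and by 2.03 and 5.30 without it. COL1A1 was at 596 CPM in replicate 2 and had no count in the other MDCK-NBL2 libraries, so its call (adjusted p = 0.00236) rests on that library alone (adjusted p = 0.711 without it).

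Of 16 basement membrane genes 12 were higher and 1 lower, with a median of 1.08; without replicate 2, 8 were higher and 1 lower, with a median of 0.72. NID2, the laminin-binding nidogen-2, was at 66.3, 467 and 96.4 CPM against 0.072, 0.43 and 0.346 CPM (9.36 ± 0.78, and 7.97 ± 0.43 without replicate 2). FREM1, an adhesion protein of the epidermal basement membrane, was at 38.4, 12.6 and 14.8 CPM with no count in MDCK-II, at least 412-fold higher. Its partner FREM2 was at 24.3, 9.35 and 10.6 CPM with 2 counts in MDCK-II, a ratio of 412 (exact 95% counting interval 114 to 3407). The laminin chain LAMC1 was at 717, 708 and 475 CPM against 265, 296 and 300 CPM (1.14 ± 0.16). For FREM1, FREM2 and LAMC1 replicate 2 was not the highest library.

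Matrix glycoproteins, proteases and integrins also had fewer members called higher without replicate 2. The counts higher and lower were 12 and 4 of 27 for glycoproteins and proteoglycans, 12 and 6 of 35 for proteases and inhibitors and 8 and 0 of 15 for integrins. Without replicate 2 they were 9 and 5 of 28, 11 and 9 of 36, and 5 and 1 of 15, and the medians moved from 1.55 to 0.21, from 0.70 to 0.01 and from 0.81 to 0.03. FN1, fibronectin, was at 1701, 28840 and 2018 CPM against 459, 909 and 652 CPM (4.01 ± 0.77, and 1.47 ± 0.33 without replicate 2). ITGA5, a fibronectin receptor subunit, was at 187, 1056 and 76.9 CPM against 3.82, 3.84 and 4.62 CPM (6.76 ± 0.82, and 5.04 ± 0.53 without it). In both genes replicates 1 and 3 alone lay above all MDCK-II libraries. VCAN (4.29 ± 0.45), a large proteoglycan, SDC1 (2.15 ± 0.25), a membrane proteoglycan, and ITGAV (2.09 ± 0.30) kept differences of 3.72, 1.57 and 1.43. The matrix protease MMP11 (6.16 ± 0.48) and the inhibitor TIMP2 (3.76 ± 0.41, or 2.96 without replicate 2) rose and the protease MMP28 fell (-2.42 ± 0.27), while ADAM12, a membrane metalloprotease, was at 1.62, 17.6 and 7 CPM with no count in MDCK-II, at least 168-fold higher, or at least 53.3-fold without replicate 2.

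Cytoskeletal and YAP pathway genes followed the same order. Of 31 actin, smooth muscle and caveolar genes 17 were higher and 3 lower, with a median of 0.91, and without replicate 2 13 and 4, with a median of 0.48. CNN2, a calponin, was at 34.4, 131 and 15.4 CPM against 0, 0.166 and 0.346 CPM (8.56 ± 0.82, and 7.31 ± 0.53 without replicate 2). DYSF, the membrane repair protein dysferlin, was at 0.244, 0.517 and 0.115 CPM against 110, 49.9 and 56 CPM (-7.69 ± 0.93, or -8.38 without replicate 2). Both differences were without overlap. TAGLN2 rose by 1.47 and MYH10, a non-muscle myosin heavy chain, fell by 1.58. Of 26 YAP and TEAD genes 10 were higher and 1 lower, with a median of 0.29, and without replicate 2 9 and 2, with a median of 0.14. TEAD3, a DNA-binding partner of YAP, was at 88.4, 90 and 61.5 CPM against 23, 20.9 and 18.6 CPM (1.94 ± 0.14, adjusted p = 2.37e-09), and its cofactor-family member VGLL3 rose by 4.08 ± 0.37.

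Interferon response and antigen presentation genes were more often lower than higher in MDCK-NBL2. Of 39 tested 4 were higher and 21 lower, with a median of -1.16; without replicate 2, 3 were higher and 23 lower, with a median of -1.79. IDO1, a tryptophan-degrading enzyme induced by interferon gamma, was at 1.01, 0.185 and 0 CPM against 129, 297 and 289 CPM (-8.92 ± 0.98, adjusted p = 7.92e-07). The class II genes DLA-DRA (3.49, 0.37 and 0.23 CPM against 169, 58.7 and 74.3 CPM) and DLA-DQA1 fell (-6.02 ± 0.76 and -7.09 ± 0.83, or -5.43 and -6.43 without replicate 2), as did the gene annotated HLA-DRB1 (-5.25). These 4 genes did not exceed 7.92 CPM in any MDCK-NBL2 library and were at 53.3 CPM or more in every MDCK-II library. The transcription factor IRF1 was at 64.4, 57.2 and 34.3 CPM against 126, 233 and 199 CPM (-1.83 ± 0.24), and IFIT3, an antiviral gene, fell (-5.81 ± 0.78, or -8.10 without replicate 2). Reads of class II genes may be shared among their copies, so the split between members is uncertain.

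Cytokine and NF-kB genes were lower on balance. Of 26 tested 7 were higher and 11 lower, with a median of -0.79, and without replicate 2 4 of 27 were higher and 13 lower, with a median of -0.80. BIRC3, an NF-kB-induced inhibitor of apoptosis, was at 6.9, 7.84 and 7.69 CPM against 43.3, 319 and 254 CPM (-4.78 ± 0.57, adjusted p = 2.17e-06). CCL2, a monocyte chemokine, was at 0.447, 0.444 and 0.115 CPM against 7.2, 60.2 and 49.8 CPM (-6.62 ± 1.20), and CXCL10, an interferon-induced chemokine, at 0.344 to 0.407 CPM against 22, 14 and 12.7 CPM (-5.34 ± 0.75). For BIRC3 and CCL2 MDCK-II replicate 1 was the lowest of its group, and for CXCL10 the highest. CXCL16 fell by 1.38. In the other direction PTGES, a prostaglandin E synthase, rose (25, 2.88 and 12.5 CPM against 0.504 to 0.693 CPM, 4.53 ± 0.67), and the receptor IL1R1 was at 29.6, 1.26 and 4.93 CPM with 2 counts in MDCK-II.

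Secretory and mucosal genes were higher in number, 11 of 20 against 4 lower with a median of 1.52, and 9 of 22 against 4 with a median of 0.76 without replicate 2. After TFF1, the chloride channel CFTR was at 7.8, 22.8 and 2.98 CPM against 0, 0.199 and 0.115 CPM (6.39 ± 0.76, adjusted p = 2.17e-06; 5.37 without replicate 2). SFTPD, a surfactant lectin, was at 0.65, 0.0739 and 0.115 CPM against 83.8, 55.4 and 63 CPM (-7.72 ± 0.66, adjusted p = 3.23e-08; -7.08 without replicate 2). CP, the copper protein ceruloplasmin, fell by 3.38 ± 0.36. Several mucosal genes were high in MDCK-NBL2 replicate 1 only: MUC5B, a secreted mucin, was at 316, 0.0739 and 4.59 CPM, SCGB1A1 at 45, 2.11 and 1.95 CPM and the protease TMPRSS2 at 44.4, 1.44 and 2.64 CPM. All 3 were under 0.7 CPM in MDCK-II, and MUC5B overlapped between the groups. Without MDCK-NBL2 replicate 1, MUC5B and TMPRSS2 did not pass (adjusted p = 0.0745 and 0.0542).

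Cholesterol synthesis and ATF4 genes were more often lower than higher in MDCK-NBL2. Of 20 cholesterol synthesis genes none was higher and 11 were lower, with a median of -0.50, and without replicate 2 the counts were the same, with a median of -0.60. FDFT1, squalene synthase, was at 122, 109 and 144 CPM against 425, 250 and 231 CPM (-1.27 ± 0.21, adjusted p = 8.76e-05), and MVD and SC5D, other enzymes of the pathway, fell by 1.19 and 0.85. Of 23 ATF4 stress and amino acid genes none was higher and 10 were lower, with a median of -0.66; without replicate 2, 1 was higher and 11 lower, with a median of -0.65. PSAT1, an enzyme of serine synthesis, was at 271, 82.7 and 95.5 CPM against 546, 470 and 508 CPM (-1.76 ± 0.42, adjusted p = 0.0024), and the stress factors ATF5 and DDIT3 fell by 2.22 and 1.52. MDCK-II replicate 1 was the highest library for FDFT1, MVD, SC5D, ATF5, DDIT3 and PSAT1.

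Of 25 aryl hydrocarbon receptor, drug and xenobiotic metabolism genes 5 were higher and 7 lower, with a median of -0.29, and without replicate 2 5 and 6, with a median of -0.19. GSTP1, a glutathione transferase, was at 68.2, 74.1 and 61.3 CPM against 312, 370 and 327 CPM (-2.31 ± 0.16, adjusted p = 2.65e-09). GCLC and GCLM, which form the rate-limiting ligase of glutathione synthesis, fell (-2.21 ± 0.24 and -1.44 ± 0.21), as did the conjugate exporter ABCC2 (-6.59 ± 0.98). CYP1A1, the best-known target of the aryl hydrocarbon receptor, was higher (13.1, 9.91 and 34.2 CPM against 0.072, 0.53 and 1.04 CPM, 5.20 ± 1.28). Of 29 hypoxia and glycolysis genes 6 were higher and 4 lower (median 0.03), and without replicate 2 5 and 5 (median -0.07), with ENO2 (-2.63) and HK2 (-1.22) lower and SLC2A3 (2.65) and CA9 (2.04) higher.

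Proliferation genes varied more within MDCK-NBL2 than between the sublines. Of 51 cell cycle genes 1 was higher and 3 lower, with a median of -0.42, and without replicate 2 2 and 3, with a median of 0.04. Their summed level was 3635, 1158 and 7922 CPM in MDCK-NBL2 and 4022, 6721 and 6698 CPM in MDCK-II. MKI67, the proliferation antigen Ki-67, was at 162, 35.3 and 435 CPM against 222, 338 and 338 CPM (-0.51 ± 0.61, adjusted p = 0.543). Replicate 2 was the lowest and replicate 3 the highest of all 6 libraries, so the groups overlapped. KIF2C, POLA1 and CDC6 passed as lower (-1.43, -1.49 and -1.70) and PCNA as higher (0.93), all with overlapping groups; PCNA did not pass without MDCK-NBL2 replicate 3 (adjusted p = 0.0534). Of 24 CDK inhibitor, D cyclin and p53 target genes 9 were higher and 4 lower (median 0.04), and without replicate 2 8 and 3 (median -0.02). CDKN1B, the inhibitor p27, rose by 1.06 ± 0.19 and GADD45A, a damage-induced gene, fell by 1.71 ± 0.25, while CDKN1A, the inhibitor p21, was at 588, 1539 and 280 CPM against 153, 356 and 303 CPM and passed only with all libraries (1.57 ± 0.41, adjusted p = 0.00514; 0.68 and 0.0973 without replicate 2).

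Ciliary genes were spread over both directions, 10 higher and 6 lower of 31, with a median of -0.04, and 9 and 5, with a median of -0.03, without replicate 2. RFX2, a ciliogenic transcription factor, was at 10.2, 5.77 and 8.38 CPM against 0.792, 1.09 and 1.15 CPM (2.99 ± 0.33, adjusted p = 7.71e-07). PKHD1, the gene of recessive polycystic kidney disease, was at 50.5, 59.9 and 35.1 CPM against 23.5, 7.25 and 6.12 CPM (1.98 ± 0.34, adjusted p = 0.000113). Both were higher in every MDCK-NBL2 library. The intraflagellar transport gene IFT52 and INVS, which encodes inversin, rose by 1.24 and 0.92.

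Among the 12450 genes tested in both fits, leaving out MDCK-NBL2 replicate 2 removed 972 calls and added 710. Of the 972 called only with all libraries, 588 were higher and 384 lower in MDCK-NBL2, and of the 710 called only without it 286 were higher and 424 lower. A list of 20 genes known from earlier results to respond to TGFb in these cells, and so no independent evidence, gives the scale: 15 were higher and none lower, with a median of 6.04 (5.23 with absent genes at their bound), against 11 higher and 2 lower with a median of 1.75 without replicate 2. Its summed level was 2730, 42189 and 3073 CPM in MDCK-NBL2 and 662, 1142 and 904 CPM in MDCK-II. Replicates 1 and 3 alone thus lay above MDCK-II in this sum.

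Just 1 gene was called in opposite directions by the 2 fits. TGFBI, a TGFb-induced matrix protein, was at 0.325, 1583 and 0.23 CPM in MDCK-NBL2 and 2.81, 6.69 and 6.81 CPM in MDCK-II, higher with all libraries (6.60 ± 1.89, adjusted p = 0.00962) and lower without replicate 2 (-4.15 ± 1.35, adjusted p = 0.022). ANKRD1, a muscle and YAP-responsive protein, was at 1.95, 246 and 3.1 CPM against 2.66, 22.3 and 19.9 CPM and passed only without replicate 2, as lower (-2.67 ± 0.66, adjusted p = 0.00357). In both genes replicate 2 lay above and replicates 1 and 3 below at least 2 of the MDCK-II libraries. GM2A, a lysosomal lipid-transfer protein, was at 194, 1209 and 85.4 CPM against 1141, 617 and 530 CPM. Its difference of -2.44 ± 0.34 passed only without replicate 2, as did those of PIPOX (-2.19) and OAS2 (-2.15). Among genes higher only without it, ADAMTS1, a matrix protease, was at 119, 2 and 54.6 CPM against 15.5 to 18.4 CPM (2.32 ± 0.50), and EGR1, an immediate early gene, was at 1687, 20.9 and 43.7 CPM against 101, 41.4 and 73.2 CPM (3.60 ± 1.14). For EGR1 only replicate 1 lay above the MDCK-II libraries.

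**Figure D4:**
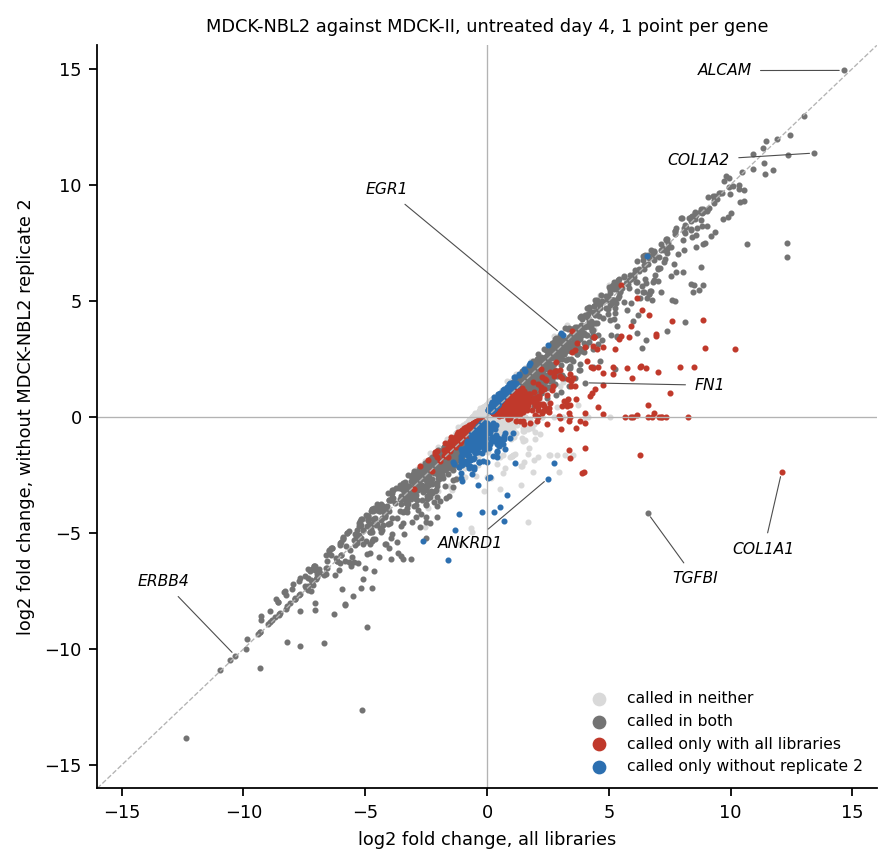
Log2 fold change of MDCK-NBL2 over MDCK-II at untreated day 4 for each gene, with all libraries (horizontal axis) and without MDCK-NBL2 replicate 2 (vertical axis); the dashed line marks equal values. COL12A1 (8.38 and 5.71) and FN1 (4.01 and 1.47) are called in both fits and lie below it, TGFBI (6.60 and -4.15) is called in opposite directions, and COL1A1, high in replicate 2, lies far below the line; fitted fold changes of genes without a count in 1 subline depend on the prior count.

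The same contrast was made in the untreated day 0 libraries, which share no library with day 4. Both contrasts came from 1 fit of all 24 libraries, so their calls rest on a shared estimate of the spread. There 3558 genes were called (28.5%). Of the 4527 genes called at day 4, 4249 had the same sign at day 0 and 2643 (58.4%) were also called at day 0 in the same direction, with 8 called in the opposite direction. These 2643 genes are 74.3% of the day 0 calls. Without MDCK-NBL2 day 4 replicate 2, 2801 genes were called on both days in the same direction and 15 in the opposite direction. The 2801 genes are 65.2% of 4294 day 4 calls and 65.6% of 4271 day 0 calls, so the day 0 count also depended on that library. Across the 12466 genes Pearson's r between the log2 differences of the 2 days was 0.868, a description over genes that are not independent replicates. Without MDCK-NBL2 day 4 replicate 2 it was 0.861. BCHE shows the MDCK-II genes in MDCK-NBL2 day 0 replicate 1: it was at 30.8, 0 and 0.135 CPM in the MDCK-NBL2 libraries at day 0 and at 0, 0.037 and 0 CPM at day 4.

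Whether the line difference itself changed between the days was tested with an interaction term. It passed for 14 genes (0.112%), all of which also passed without MDCK-NBL2 day 4 replicate 2, where 70 genes did (0.557%). The count depended on the fit: edgeR called 0 genes in the untreated libraries alone, with 794 at an unadjusted p under 0.05, DESeq2 called 174, and leaving out 1 library at a time gave 2 (without MDCK-II day 0 replicate 2) to 849 (without MDCK-NBL2 day 4 replicate 3). Without MDCK-NBL2 day 0 replicate 1 it was 8. FABP3, a fatty acid binding protein, was at 43.4, 23.1 and 40.8 CPM in MDCK-NBL2 and 820, 558 and 450 CPM in MDCK-II at day 4, and at 38.7, 51.2 and 59.1 CPM against 75.7, 99.5 and 99.5 CPM at day 0. The fall was thus larger at day 4, by a log2 difference of -3.21 ± 0.43 (adjusted p = 0.0036). DPP4 was higher in MDCK-NBL2 at both days, less so at day 4 (-2.18 ± 0.30, adjusted p = 0.0036), since its MDCK-II level was 13.7 to 14.5 CPM at day 4 and 2.28 to 3.80 CPM at day 0. PID1, an adaptor that binds a lipoprotein receptor, was at 5.54, 7.77 and 9.29 CPM against 50.3, 62.8 and 52.7 CPM at day 0 and overlapped between the sublines at day 4 (2.66 ± 0.44, adjusted p = 0.0191; 0.0643 without MDCK-NBL2 day 0 replicate 1). LAMC1 did not pass at day 0 (-0.04, adjusted p = 0.87) and was higher in MDCK-NBL2 than in MDCK-II at day 4. The difference between days was 1.19 ± 0.22 (adjusted p = 0.0399, and 0.0771 without MDCK-NBL2 day 0 replicate 1). Its MDCK-II level was 516.7 to 537.9 CPM at day 0 and 264.9 to 300.2 CPM at day 4. In MDCK-NBL2 it was at 548.9, 467.2 and 526.7 CPM at day 0 and 717.2, 708.3 and 474.6 CPM at day 4.

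**Figure D5:**
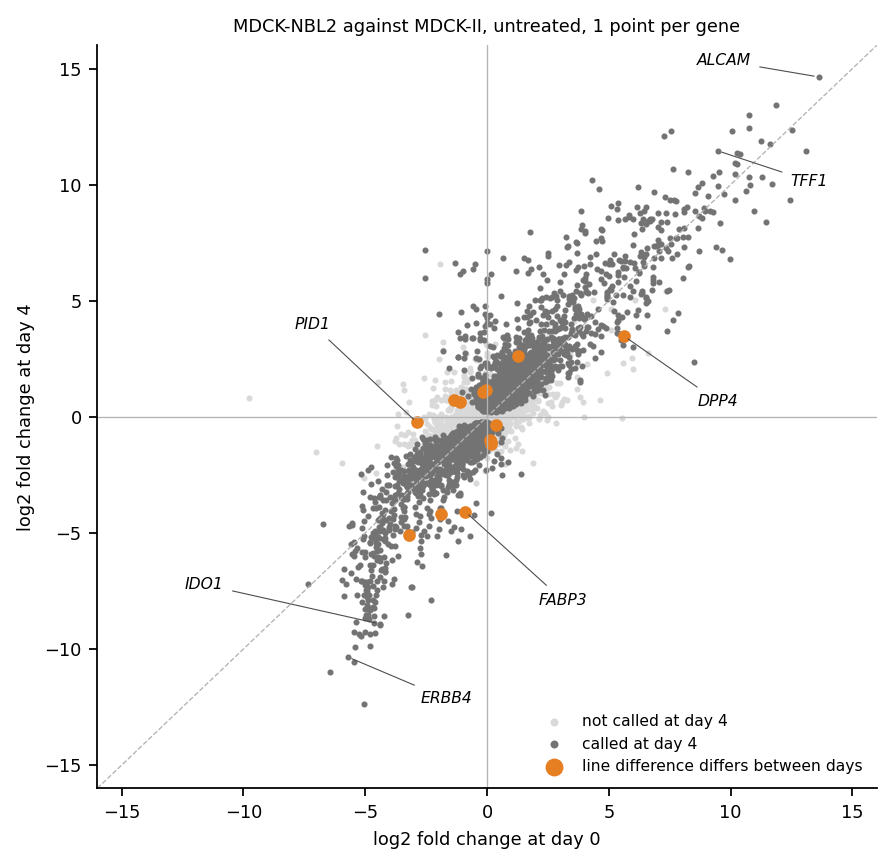
Log2 fold change of MDCK-NBL2 over MDCK-II for each gene at day 0 (horizontal axis) and day 4 (vertical axis), untreated; the dashed line marks equal values. Most genes called at day 4 (dark) keep their sign at day 0, and the 14 genes whose line difference differs between days (orange) include FABP3, DPP4 and PID1.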

How the data were processed

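The authors deposited a table of whole-number counts per gene with 1 column per library. Per the labels the libraries were stranded mRNA, and the submitters' processing notes name STAR 2.5.3a, RSEM 1.3.0 and CanFam3.1. Counts were tested as deposited with edgeR 4.0.16 (limma 3.58.1, R 4.3.3): TMM scaling, filterByExpr (minimum count 10), 1 mean per group over all 24 libraries, the quasi-likelihood test and Benjamini-Hochberg adjustment at 0.05. Errors are SE unless marked SD, with the SE taken as the absolute log2 difference over the square root of the test's F statistic. Library totals of the series ran from 6134930 to 27567300 counts, and counting intervals cover counting error only. The step was tested on simulated data with an equal spread in all groups and no outlying library. That setting differs from these libraries. At day 0 same-numbered libraries of the sublines correlated at 0.132, 0.138 and 0.253 in their deviations, each best with its own number; this pairing comes from the data, not the labels. A replicate block gave 5261 day 0 calls against 5017 in those 6 libraries, and 3718 against 3558 over all libraries.

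Members and lists were chosen with earlier results of these data known. Genes were named by rule: the 12 largest rises and 12 largest falls past 0.05 in both fits, without overlap and reaching a mean of 10 CPM in either subline, up to 4 members per list by adjusted p, a set of EMT and junction genes, the 6 largest in each direction called only without replicate 2, and the 6 largest in each direction of the interaction. Others, among them TGFBR2, EREG, FST, KRT14, MUC5B, CCL2, OSR1 and the marker genes, were named after their values were seen. Results of some genes are not reported here. DESeq2 1.42.0 and other alternatives are in the closing section.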

Additional observations from a re-analysis of the deposited data

Results flagged for a closer look

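The line difference at day 4 minus that at day 0 passed the interaction test of edgeR for 12 genes with a symbol. It was lower at day 4 for FABP3 (-3.21 log2), DPP4 (-2.18), ELMO1 (-1.86), CEACAM1 (-1.32), MKNK2 (-1.14) and PPME1 (-0.71). It was higher at day 4 for PID1 (2.66), P3H2 (2.06), NIPAL1 (1.76), KLHL3 (1.34), STK11IP (1.23) and LAMC1 (1.19). ELMO1, an activator of the small GTPase Rac, was at 2.84, 4.95 and 2.18 CPM in MDCK-NBL2 against 96.9, 124 and 133 CPM in MDCK-II at day 4, and at 9.91, 7.51 and 9.56 CPM against 81.4, 81.4 and 86.3 CPM at day 0. KLHL3, a ubiquitin ligase adaptor that controls distal tubule salt transport, was at 41.0, 43.8 and 44.2 CPM against 6.62, 8.47 and 5.31 CPM at day 4 and at 60.2, 52.1 and 46.7 CPM against 22.6, 23.2 and 19.2 CPM at day 0. CEACAM1, STK11IP and LAMC1 overlapped between the sublines at day 0 and did not at day 4. MDCK-NBL2 day 0 replicate 1, which held MDCK-II genes at 10.05% of their level, enters all of these differences. Without it 8 genes passed in all. Of the 12, the differences of FABP3 (-3.36), DPP4 (-2.31), ELMO1 (-1.78), KLHL3 (1.44) and STK11IP (adjusted p = 0.0488) still passed, and the other 7 kept their sign but did not pass (adjusted p between 0.0643 for PID1 and 0.117 for NIPAL1).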

How the results depend on the processing

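With DESeq2 size factors, DESeq2 as the test, low genes retained, a replicate block over all libraries, only the untreated libraries, or leaving out 1 library at a time, the day 4 calls stayed within 1.5 times of 4527 (3047 to 5998, the highest without MDCK-NBL2 replicate 3, the lowest of the leave-one-out values 3699). Leaving out replicate 1 of both sublines, chosen after seeing the data, gave 4735. The fit of the 6 libraries alone called 1267 genes (734 higher, 533 lower). With a replicate block it called 1076 (610 and 466). Without MDCK-NBL2 replicate 2, also chosen after seeing the data, it called 1285 (723 and 562). These 3 fits estimate the spread from the day 4 untreated libraries only. At day 0 a fit of the 6 libraries compared called more genes, 5017 against 3558. The cause of the lower count at day 4 was not tested. Of 228 named genes tested in each of the 3 day 4 fits, 53, 55 and 52 lost their call. So did 8 of 229 in the fit of the untreated libraries and none under the scaling, filter, DESeq2 or all-library block alternatives. Reversed values were COL1A1 (-2.39), TGFBI (-4.15), ANKRD1 (-2.67) and KRT14 (-1.98) without MDCK-NBL2 replicate 2, and TGFBI at -0.90 in the 6 libraries with a replicate block and -4.19 in the 6 libraries without replicate 2. Without MDCK-NBL2 replicate 1, TGFBI (7.19), ANKRD1 (3.07) and KRT14 (3.32) were positive. Same-numbered libraries of the sublines at day 4 correlated at 0.231, -0.164 and 0.367 in their deviations, and replicate 2 did not correlate best with its own number, so the numbers were not taken as pairs at day 4, where the replicate block over all libraries gave 4656 calls. Day 0 calls were 3558 and 2300 with only the untreated libraries. The interaction called 14 genes, 174 with DESeq2, 30 with a replicate block over all libraries, and 0 with edgeR in the untreated libraries alone, without or with a replicate block (794 and 739 at an unadjusted p under 0.05); leaving out 1 library gave 2 to 849, with 849 without MDCK-NBL2 day 4 replicate 3, 198 without MDCK-II day 4 replicate 1 and 2 without MDCK-II day 0 replicate 2. At 10 CPM the genes separating the sublines at day 0 numbered 30 for MDCK-NBL2 and 0 for MDCK-II, and without MDCK-NBL2 day 0 replicate 1, chosen after seeing the data, the MDCK-II genes numbered 75. Differences of genes near 0 CPM are limited by counting.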
